A study of Bos taurus with 10 samples.

Results

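*ZP2*, *ZP3* and *ZP4* encode the glycoproteins of the bovine zona pellucida, the egg coat. They were taken as every probe set whose only gene symbol in the array platform's annotation was one of these 3 names. This gave 3 genes with 1 probe set each, of 9155 genes that had a probe set of their own symbol, among 24016 probe sets tested. Expression had been measured on 10 Affymetrix bovine arrays, 5 of immature oocytes and 5 of oocytes matured in vitro (IVM), to ask how the transcript content of the oocyte changes across maturation.

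Both groups came from follicles of 3 to 8 mm on ovaries of slaughtered cows. Immature oocytes were freed of their cumulus cells and frozen at 0 h. IVM oocytes were cultured inside their cumulus cells for 24 h at 39 °C under 5% CO2, in medium that held epidermal growth factor (10 ng/ml) and fetal calf serum (10%), before the same denuding and freezing. Each array held a pool of 100 oocytes, stored in tubes of 10, and 100 ng of RNA went through 2 rounds of 3′ amplification. The methods describe dividing the collected complexes equally between the 2 groups. Replicates were separate days of ovary collection, and no breed or age of the cows was given in the sources used here.

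The zona pellucida is an extracellular matrix through which sperm must bind and pass. Its glycoproteins are made by the growing oocyte as membrane-anchored precursors, are N-glycosylated in the endoplasmic reticulum and Golgi, are released by a furin-type convertase, and polymerise through a shared zona pellucida domain. ZP3 and ZP4 take part in sperm binding in cattle, and ZP2 is cut after fertilisation by the cortical granule protease ovastacin, which hardens the coat. In the oocyte nucleus the factor FIGLA, paired with a widely expressed E protein, activates the zona genes.

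Transcripts of the zona genes were lower in IVM oocytes, by very different amounts. *ZP3* fell 13.7-fold and was the single member with a Benjamini-Hochberg adjusted p under 0.0001 in limma, the threshold used here. *ZP4* was 8.86-fold and *ZP2* 1.58-fold lower, and both passed only at the looser threshold of 0.05. Thus 1 of 3 members was called lower where the background was 4.81% of all probe sets tested (12.1% of the 9460 probe sets that varied), and 3 of 3 at 0.05 where it was 15.0% (31.7% of those that varied). A probe set was said to vary when its values spanned at least 0.01 over the 10 arrays. Some probe sets below that span also passed, by very small differences. At 0.05, 3602 of all tested were lower, of which 2997 varied. For none of the 3 genes did the groups overlap, a pattern shown by 29.3% of varying probe sets with IVM lower. All values are the deposited log2 values, so a difference of 1 is a doubling on that scale. Whether the scale is proportional to the amount of RNA was not tested. In pools of oocytes a loss in every oocyte and a complete loss in some of them cannot be told apart. The paper also raises the possibility that amplification depends on the length of the poly(A) tail. Tail length was not measured on these arrays, and its part in the values was not tested.

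*ZP3*, which encodes a core subunit of the zona filaments, was measured by a single probe set (gene identifier 280964). Its log2 value on the immature arrays was 13.69, 13.91, 13.42, 13.12 and 13.80 in replicates 1 to 5. On the IVM arrays it was 9.96, 9.44, 9.66, 9.08 and 10.90. The lowest immature array thus stood 2.22 above the highest IVM array, and IVM replicate 5 stood above the other IVM arrays. The means were 13.59 ± 0.32 and 9.81 ± 0.69 (SD, n = 5 each), a log2 difference of -3.78 (SE 0.34, adjusted p 6.49e-05 in limma). The call rested on all arrays but 1, since leaving out any array except IVM replicate 5 raised the adjusted p above 0.0001, to between 1.40e-04 and 3.96e-04, while the difference stayed between -4.05 and -3.60. With the replicate number as a block the adjusted p of *ZP3* was 0.00234 over all probe sets, where 0 probe sets passed in limma (8805 at an unadjusted p under 0.05), and 3.46e-05 over the varying ones.

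*ZP4*, the zona protein that mice lack in functional form and cattle retain, also had a single probe set (gene identifier 280965). Immature replicates 1 to 5 had log2 values of 14.04, 14.16, 14.07, 13.67 and 14.27. The IVM replicates had 11.15, 10.14, 11.63, 9.81 and 11.72. The groups were 1.95 apart, and IVM replicates 2 and 4 stood more than 1 log2 unit below the other IVM arrays. The means were 14.04 ± 0.23 and 10.89 ± 0.87 (SD, n = 5 each), a log2 difference of -3.15 (SE 0.40). Its limma adjusted p of 4.95e-04 was above 0.0001 in the fit over all probe sets, although the difference was close to that of *ZP3*, and it became 3.49e-05 when the fit was made over the varying probe sets alone, where 17.8% of probe sets were called lower.

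*ZP2*, the substrate of ovastacin, had 1 probe set as well (gene identifier 280963). It stood at 13.85, 13.86, 13.72, 13.72 and 13.94 on the log2 scale in immature replicates 1 to 5, and at 13.41, 12.97, 13.24, 12.85 and 13.31 in the IVM replicates. The groups were separated by 0.30, a narrower gap than for the other zona genes. The means were 13.82 ± 0.10 and 13.16 ± 0.24 (SD, n = 5 each), a log2 difference of -0.66 (SE 0.11, adjusted p 0.00267 in limma). *ZP2* thus remained high on every IVM array. The adjusted p was 0.0969 after a further quantile normalization, which gave a difference of -0.50.

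**Figure D1:**
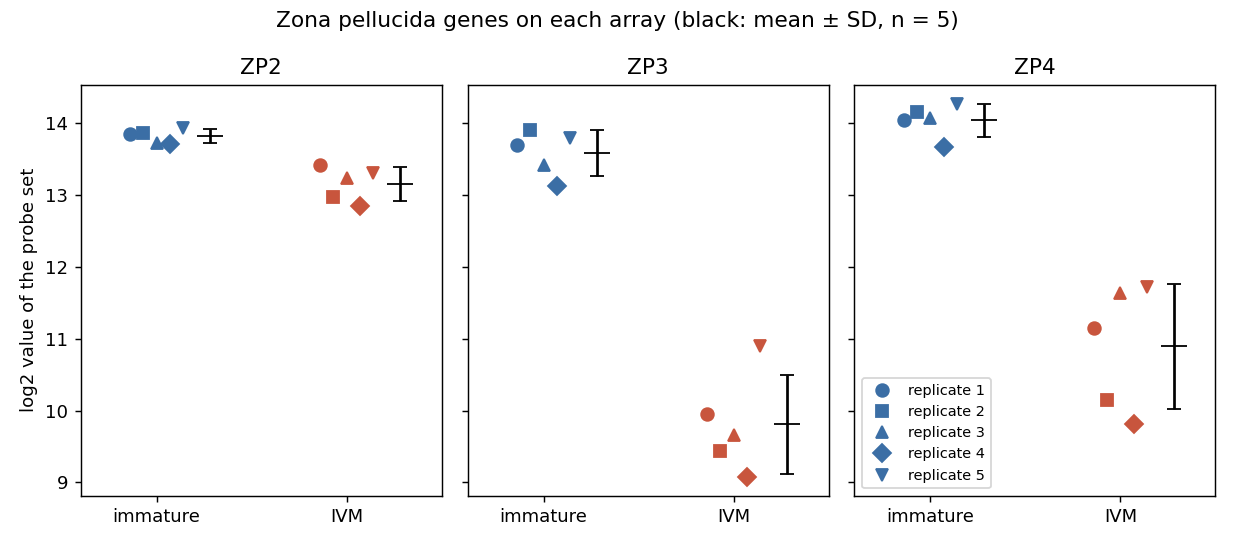
Deposited log2 value of *ZP2*, *ZP3* and *ZP4* on each of the 5 immature (blue) and 5 IVM (red) arrays, with marker shape for replicate number and black bars beside them for the mean and SD. *ZP3* went from a mean of 13.59 to 9.81 and *ZP4* from 14.04 to 10.89, while *ZP2* went from 13.82 to 13.16, and IVM replicate 4 was the lowest IVM array for each gene.

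The arrays deviated in a like way for the 3 genes. Immature replicate 4 was the lowest immature array for each of them, level with replicate 3 for *ZP2* at 2 decimals. IVM replicate 4 was the lowest IVM array and IVM replicate 2 the next for each gene. Of the oocyte markers described below, *GDF9*, *BMP15*, *NLRP5*, *KPNA7* and *OOEP* shared these places, while *MOS*, *GTSF1* and *UCHL1* did not. The mean over the varying oocyte markers was also lowest in immature replicate 4 (11.79) and in IVM replicates 4 (9.84) and 2 (10.32). Each exact permutation test of the group means gave a two-sided p of 0.00794 (n = 5 each), the smallest that 5 against 5 arrays allow.

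In place on the array, the zona genes began among the brightest probe sets. Counted from the highest of the 24016 values of an array, *ZP4* held places 1 to 21 on the immature arrays and 527 to 2725 on the IVM arrays. *ZP3* went from places 13 to 61 to places 1235 to 4137. *ZP2* went from places 11 to 19 to places 20 to 145, so that it was still among the brightest transcripts after maturation. A place depends on the probes as well as on the RNA, and no order of RNA amounts among the 3 genes can be read from it.

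Whether the zona genes changed by unequal amounts was tested on differences taken within each array. The *ZP3* minus *ZP2* difference was -0.15, 0.05, -0.30, -0.59 and -0.14 in immature replicates 1 to 5, and -3.46, -3.53, -3.58, -3.78 and -2.41 in the IVM replicates. It changed by -3.12 (SE 0.26). The *ZP4* minus *ZP2* difference ranged from -0.05 to 0.35 on immature arrays and from -3.04 to -1.59 on IVM arrays, a change of -2.49 (SE 0.31). On the same arrays, *ZP3* and *ZP4* thus differed far more between the groups than *ZP2* did. *ZP4* minus *ZP3* was 0.34, 0.25, 0.65, 0.55 and 0.47 before and 1.19, 0.71, 1.97, 0.74 and 0.82 after maturation, a change of 0.63 (SE 0.25), with the groups only 0.06 apart. All 3 pairs were compared, and each had p = 0.00794 in a two-sided exact permutation test over 5 against 5 arrays, also after Benjamini-Hochberg adjustment over the pairs. The *ZP4* to *ZP3* contrast was the least stable, at 0.47 (exact permutation p = 0.103) after a further quantile normalization and 0.41 at its lowest when an array was left out.

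**Figure D2:**
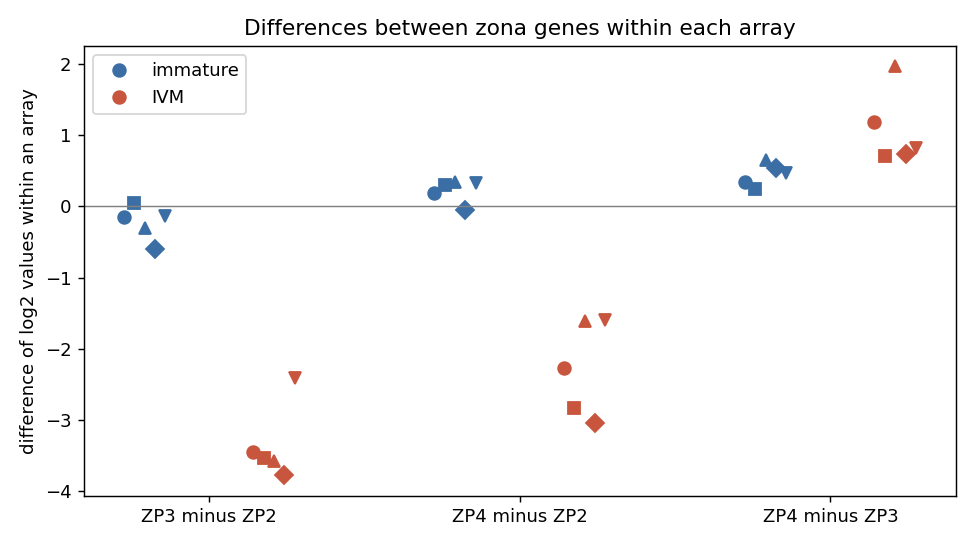
Log2 difference between each pair of zona genes within each array, for 5 immature (blue) and 5 IVM (red) arrays, with marker shape for replicate (circle 1, square 2, upward triangle 3, diamond 4, downward triangle 5). *ZP3* minus *ZP2* moved from a mean of -0.23 ± 0.24 to -3.35 ± 0.54 and *ZP4* minus *ZP2* from 0.22 ± 0.16 to -2.27 ± 0.67, while *ZP4* minus *ZP3* moved from 0.45 ± 0.16 to 1.09 ± 0.53 (SD, n = 5 each).

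Set against all probe sets, the differences of *ZP3* and *ZP4* lay far into the lower tail. A larger fall was found for 175 probe sets for *ZP3*, 0.729% of those tested and 1.85% of those that varied. For *ZP4* it was 333 (1.39% and 3.52%). For *ZP2* it was 2576 (10.7% and 27.2%), so that a difference of its size was common among varying probe sets. The median difference was 0.18 over the varying probe sets.

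**Figure D3:**
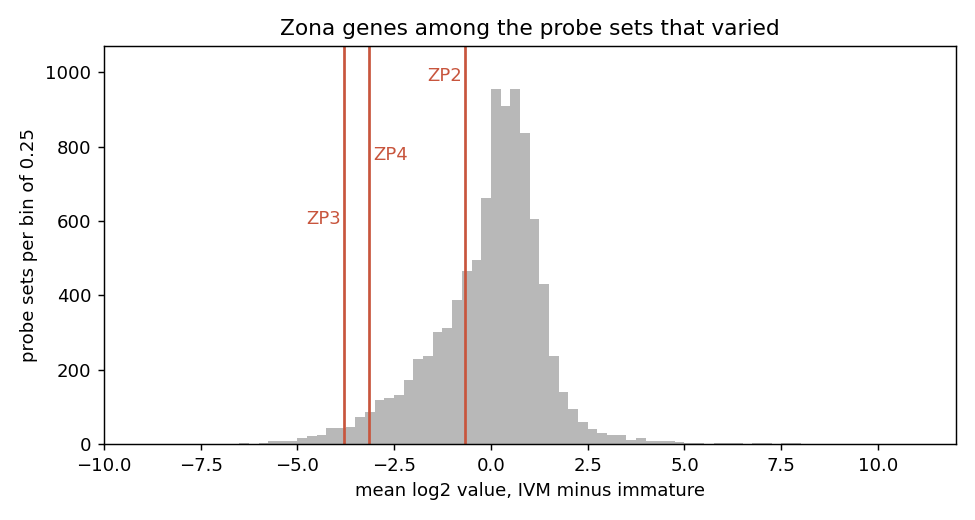
Number of varying probe sets (9460 in all) in bins of the IVM minus immature log2 difference, with vertical lines at the differences of *ZP3* (-3.78), *ZP4* (-3.15) and *ZP2* (-0.66). *ZP3* and *ZP4* lie in the lower tail and *ZP2* on the lower side of the main peak.

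The genes most like each zona gene were those with the smallest root mean square distance over the 10 arrays, after each gene's values were taken relative to its own immature mean, among 6151 varying probe sets with 1 symbol. For *ZP3* they were *CD58*, an adhesion molecule, at 0.197, *MAD2L2*, a DNA polymerase zeta subunit, at 0.222, *DYNLL1*, a dynein light chain, at 0.247, *BAIAP2* at 0.248 and *GOSR1*, a Golgi SNARE, at 0.270. Other probe sets of *CD58* gave 0.64 and -2.52 against -3.81 for the one that matched. For *ZP4* they were *UNC119* (0.293), the kinase *CDK5* (0.312), the aldose reductase *AKR1B1* (0.326), *TCF19* (0.341) and *NUFIP1* (0.351). For *ZP2* they were *RASL12* (0.0968), the TATA-binding protein *TBP* (0.101), *SERPINA6* (0.102), the mitotic kinase *AURKA* (0.103) and *FHIP1B* (0.106), and a second *AURKA* probe set went the other way, at 0.54. *ZP4* came only at place 105 in the order of likeness to *ZP3*, at a distance of 0.569. *ZP3* and *ZP4* came at places 5850 and 5585 in the order for *ZP2*, so that the zona genes were not nearest to each other by this distance. The distance includes the size of the difference between the groups, so the places for *ZP2* largely restate its smaller fall.

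Of 14 other zona, egg coat and zona pellucida domain genes, 4 were found on the array by symbol (*OVGP1*, *FETUB*, *UMOD* and *ENG*) and none of them varied. No probe set carried the symbol *ZP1* or *ASTL*, which encodes ovastacin, and these genes were not analysed here. *FIGLA* likewise had no probe set under its symbol. Of the factors known to act on zona genes, 3 of 10 were found. The E protein gene *TCF4* rose by 2.05, from 8.10 ± 0.11 to 10.15 ± 0.33 (SD, n = 5 each, adjusted p 2.46e-05 in limma), where the background of rises was 0.974% of probe sets. Its call was lost when any of 8 of the 10 arrays was left out, and with poly-A scaling, where it differed by 1.11 (adjusted p 1.29e-04). Another E protein gene, *TCF12*, differed by 2.55 with an adjusted p of 0.00601, and a probe set of *TCF3* differed by -0.76 with an adjusted p of 0.00215, while its brighter probe set did not vary.

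The enzymes that build the N-glycan precursor and transfer it to proteins such as the zona glycoproteins were also examined. Of 31, 26 were on the array and 18 varied, of which 3 fell, 0 rose and 15 did not pass in limma, with a median difference of -0.30. The share that fell, 3 of 18, stood beside 12.1% of all varying probe sets. At an unadjusted p under 0.05, 9 were lower and 5 higher. In either direction, 9360 of all 24016 probe sets reached that level, and 7155 of 9460 in the fit over varying ones. *ALG11*, a mannosyltransferase, fell by 3.74 (SE 0.06) and *ALG14*, a subunit of the enzyme that adds an early N-acetylglucosamine, fell by 3.36 (SE 0.13). The second probe set of each also passed, at -2.49 and -1.57. *DOLK*, the dolichol kinase, fell by 1.47 (SE 0.06), and its second probe set did not vary. The fall of *ALG11* was thus of the size of that of *ZP3*. These 3 calls held with any array left out.

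Of 32 genes for trimming and later Golgi processing of glycans, 21 were on the array and 17 varied, of which 0 fell and 1 rose (2.38% of all varying probe sets rose), with a median difference of 0.63. *MGAT4B*, a branching N-acetylglucosaminyltransferase, rose by 0.89 (SE 0.08, adjusted p 5.15e-05 in limma), but its difference was -0.05 when arrays were scaled to their poly-A controls, and its call was lost without any of 9 of the 10 arrays. The median of the list also turned, to -0.31, under that scaling. At 0.05, adjusted or not, 9 of the 17 were higher and 2 lower in limma, where after adjustment 15.5% of all probe sets and 34.0% of the varying ones were higher.

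None of 7 varying genes of endoplasmic reticulum folding, of 11 found on the array, passed at 0.0001 in limma, and 1 did at 0.05 (2 at an unadjusted p under 0.05). At an adjusted p under 0.05, 31.7% of all varying probe sets were lower, and 9360 of 24016 probe sets had an unadjusted p under 0.05. The gene past 0.05 was *DNAJC3*, a chaperone partner, at -0.29. *HSPA5*, the main chaperone of that compartment, differed by -1.35 with overlapping groups. Of the proprotein convertases *FURIN* and *PCSK7* did not vary, and *MBTPS1* differed by 0.26 (adjusted p 0.546). Under the zona lies the egg surface, where *CD9*, the tetraspanin needed for sperm fusion, differed by 3.10 (adjusted p 0.00224), *CD81* by -0.81 (adjusted p 0.0378) and the integrin *ITGB1* by 0.09.

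Between the groups, the oocyte markers found on the array did not move as a block with the zona genes. Of 21 listed, only 8 had a probe set under their symbol, and these all varied. Called lower were 2 of the 8, beside 12.1% of all varying probe sets. *GTSF1*, a germline factor of transposon silencing, fell by 4.87. *NLRP5*, a maternal effect gene, fell by 4.03 (adjusted p 4.79e-05 in limma, lost without any of 8 of the 10 arrays). The growth factor gene *GDF9* differed by -4.42 (adjusted p 3.09e-04). The other 5 lay between -0.12 and 0.45, namely *OOEP* (-0.12), *MOS* (0.14), *BMP15* (0.19), the importin *KPNA7* (0.37) and *UCHL1* (0.45), and those above 0 were below 0 with scaling to poly-A controls. The median over the 8 was 0.01, against -3.15 over the 3 zona genes.

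**Figure D4:**
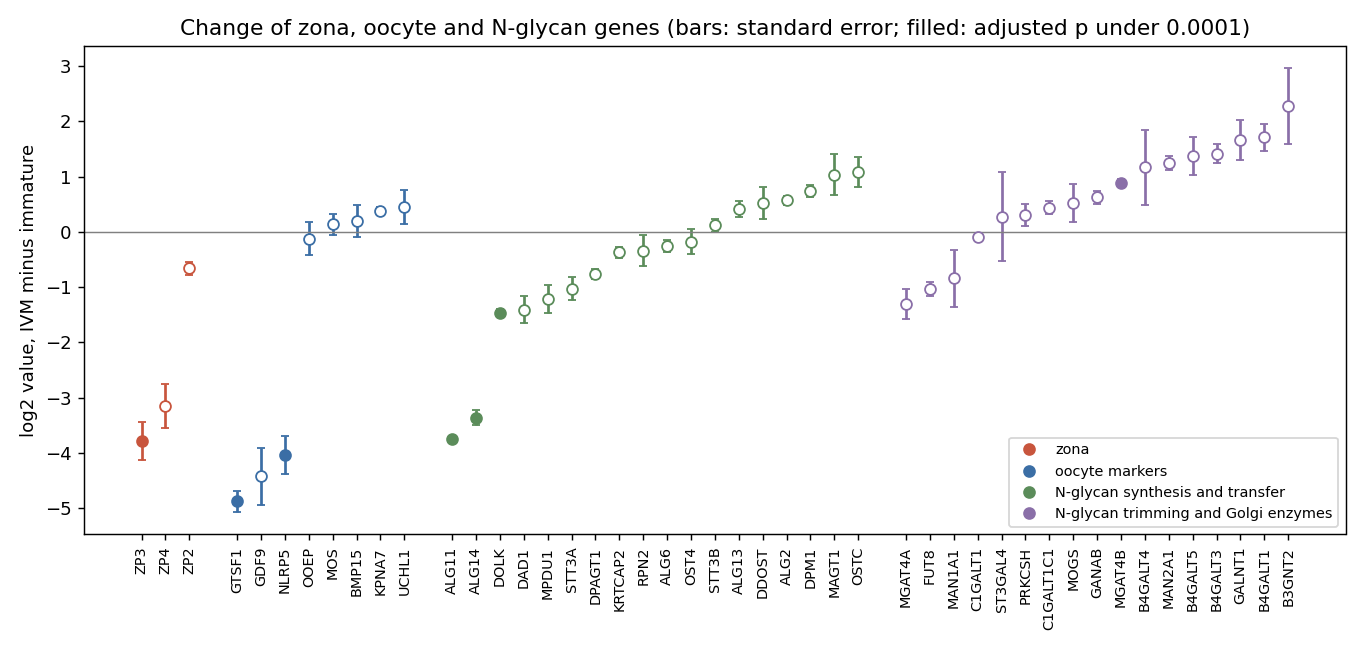
IVM minus immature log2 difference of the 3 zona genes (red) and of each varying oocyte marker (blue), N-glycan synthesis gene (green) and N-glycan trimming or Golgi gene (purple), with bars for the standard error and filled symbols at an adjusted p under 0.0001. The zona genes lie between -3.78 and -0.66, the oocyte markers between -4.87 and 0.45, and every difference is 0.94 lower with poly-A scaling, which turns those between 0 and 0.94 below 0.

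Markers of cumulus and granulosa cells, which surround the zona and were removed before freezing, also differed between arrays. Of 23, 21 were on the array and 16 varied, of which 0 fell and 1 rose (2.38% of all varying probe sets rose), with 9 below 0 and a median difference of -0.33. The gene that rose was *TNFAIP6* of the expanding cumulus matrix, by 10.86, and its second probe set differed by 2.71 (adjusted p 0.00110). The call was lost when any array other than IVM replicate 5 was left out. At an unadjusted p under 0.05, 3 of the 16 were lower and 5 higher, a level that 9360 of all 24016 probe sets reached (7155 of 9460 in the fit over varying ones). *PTX3* of the same matrix differed by 6.38 (adjusted p 4.80e-04). At an adjusted p under 0.05 in limma, 5 were higher and 2 lower, beside 34.0% and 31.7% of all varying probe sets. The higher ones included *VCAN* (3.96), *HAS2* (1.40) and *PTGS2* (1.31), with adjusted p of 0.0118, 0.0285 and 0.00270. Other probe sets gave 4.31 and 3.73 for *VCAN* but 0.38 and 0.29 for *HAS2*. The 2 lower were the steroid synthesis genes *CYP19A1* and *STAR*, at -1.38 and -1.19 (adjusted p 0.00656 and 0.00306). *AREG*, *CD44*, *LHCGR*, *FOXL2* and *NR5A2* did not vary. The mean log2 value over the 16 was 8.48, 7.55, 9.02, 9.33 and 8.34 in immature replicates 1 to 5, and 9.22, 9.88, 9.48, 10.62 and 8.72 in the IVM replicates. Read from low to high, these means put the replicates in the order 2, 5, 1, 3 and 4 among immature arrays, and 5, 1, 3, 2 and 4 among IVM arrays. *ZP3*, read from high to low, had the same order in both groups. *ZP4* and *ZP2* had the same last array in both groups but not the same full order. The order was not particular to *ZP3*, since the Golgi gene *ST3GAL4* had it from low to high in both groups. From high to low, *NLRP5* had it among IVM arrays but not among immature ones. Immature replicate 4, at 9.33, had a higher marker mean than IVM replicates 1 and 5, and its *ZP3* value was 13.12 against 9.96 and 10.90. Of 16 markers of other somatic and blood cells, 5 varied and 0 passed in limma at 0.0001, with 4 higher at 0.05, where 34.0% of all varying probe sets were higher. Without adjustment, 4 had a higher and 1 a lower value at a p under 0.05, as did 9360 of all 24016 probe sets in either direction. The 4 were *LUM* (4.37), *KRT18* (3.92), *DCN* (1.79) and *COL3A1*, whose difference was only 0.01. Their mean ranged from 6.61 to 8.69 in immature and from 7.84 to 10.14 in IVM arrays, highest in IVM replicate 4. *CD9* and *TCF12*, named above, were likewise highest in replicate 4 of both groups, as were the means of the cumulus and granulosa markers. The part of these markers in the values of the zona genes, or of the other genes named here, was not tested.

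The medians of the deposited values lay between 7.04 and 7.10 on every array. As 14556 of the 24016 probe sets spanned less than 0.01, the medians say little about the brighter values. The highest value of an array ranged from 13.94 on IVM replicate 1 to 17.13 on IVM replicate 4. Correlations were 0.948 to 0.993 among immature, 0.890 to 0.988 among IVM and 0.688 to 0.819 between groups. The poly-A control RNAs were higher on IVM arrays, 7.95 ± 0.20 against 7.02 ± 0.15 (SD, n = 5 each, exact permutation p = 0.00794), and the hybridization controls differed by 0.90 (exact permutation p = 0.0556). The 3′ minus 5′ difference of control probe sets, a sign of RNA length, went from -1.14 to 1.33 for EF1A (exact permutation p = 0.00794, 0.0238 adjusted over 3 genes). It differed by 0.06 for GAPDH and 0.33 for cyclophilin (exact permutation p = 0.802 and 0.516). For actin and eIF-4E it differed by -6.15 and -0.74 (exact permutation p = 0.00794 each), the other way from EF1A. Their 5′ probe sets spanned only 0.0459 and 5.01e-07, so that these values are nearly those of the 3′ probe set alone. Both genes were left out of the adjustment, although the span for actin was above the 0.01 used elsewhere. The part of these controls in the zona gene values was not tested. Scaled to the poly-A controls, the median of all probe sets shifted by -0.94, and the differences became -4.72 for *ZP3*, -4.08 for *ZP4* and -1.59 for *ZP2*. All 3 were then past the threshold, as were 77.7% of all probe sets on the lower side (43.4% of the varying ones), and relative to the shifted median they were as before. The 77.7% includes probe sets that did not vary, which this scaling also shifts. The direction for each zona gene was the same under the 15 alternatives that could move the difference. Those that left out arrays could not reverse it, since the groups did not overlap, and scaling to controls lowered every difference.

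**Figure D5:**
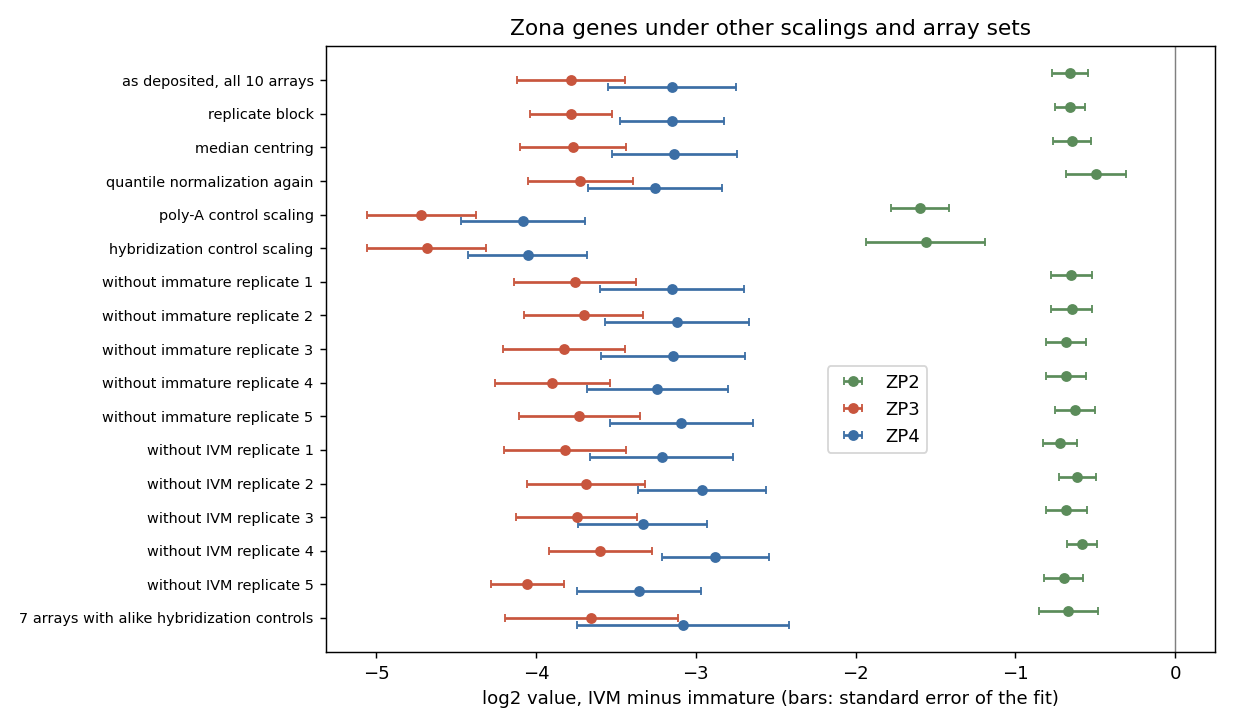
IVM minus immature log2 difference of *ZP2* (green), *ZP3* (red) and *ZP4* (blue) with the deposited values of all 10 arrays and under alternative models, scalings and sets of arrays, with bars for the standard error of the fit. Every difference lies below 0, and those of *ZP3* (-4.72 to -3.60) and *ZP4* (-4.08 to -2.88) lie below those of *ZP2* (-1.59 to -0.50).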

How the data were processed

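The authors read the 10 arrays with GCOS, quantile-normalized them and summarised each probe set with FARMS, and they deposited a single log2 value for each probe set on each array. FARMS leaves probe sets it finds uninformative almost constant. Software versions and a genome build were not given in the sources used here. All 10 columns were used, so 0 columns of values were left out.

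Of 24128 probe sets, 112 controls were set apart. Names follow the annotation of the platform, brought up to date by gene identifier (13263 probe sets) or accession (2), or kept as they were (27). Those listing more than 1 gene (86) and those without a name here (10638) entered the tests but are not named. No sequence of the zona genes was used.

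IVM was compared with immature by lmFit and eBayes (limma 3.58.1, R 4.3.3) over all 24016 probe sets, without a replicate block, with Benjamini-Hochberg adjustment and a threshold of 0.0001. The study itself used SAM on the probe sets that FARMS called informative, with a false discovery rate of the same value. SAM and those calls were not used here, so the calls are not those of the study. The prior had 0.103 degrees of freedom, and 1.86 over the varying probe sets. A list gene was represented by its probe set with the highest mean. Single values were tested by exact permutation (scipy 1.17.1). On simulated data the fit over 24016 probe sets recovered 14 of 100 changes of 1 and 73 of 100 changes of 3 on the log2 scale with 0 false calls, and over 9460 it recovered 16 and 85. Only those probe sets were changed, with independent normal noise of the same SD in both groups. In the data many more probe sets differed, and the median SD over varying ones was 0.19 in immature and 0.31 in IVM arrays. These counts are therefore no measure of recovery in the data. Precision is limited by the number of arrays.

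The zona genes, the 10 other gene lists and the tests were chosen with earlier results of these data known. The genes named are the zona genes, the 5 genes most like each, all varying genes of the regulator, egg surface and oocyte lists, and the called genes of other lists. *HSPA5*, *DNAJC3*, *MBTPS1*, *ST3GAL4*, *PTX3*, *VCAN*, *HAS2*, *PTGS2*, *CYP19A1*, *STAR*, *LUM*, *KRT18*, *DCN*, *COL3A1* and the genes that did not vary were named after their values were seen. The comparison of array orders was also chosen then.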

Additional observations from a re-analysis of the deposited data

Results flagged for a closer look

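The *ZP3* minus *ZP2* log2 difference of IVM replicate 5, at -2.41, stood apart from the other IVM arrays, which lay between -3.78 and -3.46. Its gap to the nearest array was 0.766 of the range of the group, above the critical value of 0.71 for 5 arrays in Dixon's test. Of 12 groups of values examined, this was the only one to stand out, and chance marks about 1 group in 20. This array also had the highest *ZP3* and the lowest mean of cumulus and granulosa markers among the IVM arrays, 10.90 and 8.72, and the part of these markers was not tested.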

How the results depend on the processing

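The differences of *ZP2*, *ZP3* and *ZP4* kept their direction under the 15 alternatives that could move them. Of these, the ones that leave out arrays could not reverse it, as the groups did not overlap. The 2 control scalings lower every difference. The 5 alternatives besides these 15 change only the error, the probe sets fitted or the threshold. *ZP2* passed the threshold with poly-A scaling (-1.59) and at an adjusted p under 0.05 (-0.66), and missed 0.05 after a further quantile normalization and over the 7 arrays with alike hybridization controls, of which only 2 are immature (-0.67, adjusted p 0.0814). *ZP4* passed over the varying probe sets and at 0.05 (both -3.15), and with poly-A (-4.08) and hybridization control scaling (-4.05). *ZP3* missed the threshold over the 7 arrays (-3.65, adjusted p 0.0134). With an array left out, *ZP2* ranged from -0.72 to -0.58, *ZP3* from -4.05 to -3.60, and *ZP4* from -3.35 to -2.88.

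Same-numbered arrays deviated together with r from -0.343 to 0.676, and 2 of the 5 correlated best with their own number. The methods divide the collected complexes between the groups, so the groups may be paired by day. The sources do not say that equal numbers mark the same day, so the main fit did not take the numbers as pairs. With the replicate block, *ZP3* (-3.78, adjusted p 0.00234) missed the threshold, as did all probe sets: 0 were lower and 0 higher in limma, with 8805 at an unadjusted p under 0.05. The block over the varying probe sets alone, chosen after seeing the data, gave *ZP3* an adjusted p of 3.46e-05 and *ZP4* 1.71e-04. Over 5 pairs of arrays the contrasts of -3.12, -2.49 and 0.63 between zona genes had an exact p of 0.0625, the smallest possible.

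*ZP4* minus *ZP3* missed 0.05 after a further quantile normalization (0.47) and over the 7 arrays (0.58, exact p = 0.238). With an array left out, *ZP3* minus *ZP2* ranged from -3.36 to -3.02, *ZP4* minus *ZP2* from -2.66 to -2.30, and *ZP4* minus *ZP3* from 0.41 to 0.73.

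The 1155 probe sets called lower became 18661 with poly-A scaling, 2437 with hybridization control scaling, 4 over the 7 arrays and 3602 at 0.05. Control scaling shifts every probe set of an array alike, also the 14556 that spanned less than 0.01. Of the 18661, only 4105 were among the 9460 that varied. The 234 called higher became 685 over the varying probe sets, 382 with median centring, 396 after a further quantile normalization, 0 over the 7 arrays (6373 of either direction at an unadjusted p under 0.05) and 3732 at 0.05. With an array left out they were 703 to 1097 lower and 77 to 318 higher. Of 20 counts over the other gene lists, 0 to 12 moved by over 1.5 times in each alternative. Apart from that shift, the cause of these changes was not tested.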
